A study of Mus musculus with 54 samples.

Results

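The nuclear form of SREBP-1c occupied 695 sites in mouse liver that were listed both with and without the tumour suppressor folliculin. These shared sites are the peaks of the Control+1c list for HA-tagged nuclear SREBP-1c (HA-nSREBP-1c) that overlapped a peak of the LiFKO+1c list by at least 1 bp. They made up 50.8% of the 1367 peaks listed in LiFKO+1c livers and 40.8% of the 1702 peaks listed in Control+1c livers. The other 672 peaks of the LiFKO+1c list and the other 1007 peaks of the Control+1c list had no partner and serve as comparison sets. The sites were chosen by the overlap of the authors' peak calls in both lists, so peak scores at these sites are given as descriptions with no test.

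SREBP-1c is a transcription factor that is made as a precursor in the endoplasmic reticulum membrane and becomes active once its amino-terminal part is cut free and enters the nucleus. In liver it is known for activating fatty acid synthesis, while its relative SREBP-2 mainly activates cholesterol synthesis and uptake. Both read the sterol regulatory element and also E-boxes, usually beside NF-Y or SP1. TFE3 is a transcription factor of lysosomal and metabolic genes that binds related E-boxes. It is held in the cytoplasm after phosphorylation by mTORC1, a step that requires folliculin, the product of Flcn.

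All mice carried floxed Flcn alleles. LiFKO mice received AAV8-TBG-Cre, a virus expressing Cre recombinase from a hepatocyte promoter, and Control mice received AAV8-TBG-GFP. Groups with the suffix +1c also received a virus for HA-nSREBP-1c under the liver-specific ApoE/AAT promoter, so the HA signal reports the virally expressed protein and not the mouse's own SREBP-1c. On FPC diet, groups without the 1c virus received a higher dose of the other virus than the +1c groups. That dose therefore differs together with the 1c virus. By the labelled doses the 1c virus made up the difference, so the total dose of virus was equal in these FPC groups. Chow and RNA-seq mice received the same dose of the other virus as the +1c groups. The HA ChIP-seq of LiFKO+1c and Control+1c livers (3 libraries each) and the TFE3 ChIP-seq of LiFKO+1c, Control+1c, LiFKO and Control livers (3 each) came from mice fed ad libitum on FPC diet for 9 days. A second TFE3 ChIP-seq used LiFKO and Control mice on normal chow. On both diets, TFE3 ChIP-seq was also made from livers labelled Tfe3KO, which are not a group compared here. The RNA-seq mice received no 1c virus. They were DKO, LiFKO and Control mice on AMLN diet and LiFKO and Control mice on normal chow, with 3 libraries per group, taken after 17 to 18.5 weeks on the diet and 4 to 6 h without food. DKO mice were Flcn floxed; Tfe3-/Y, lacking Tfe3 in the whole body, and received AAV8-TBG-Cre. Expression near a site was therefore measured under other diets and without added SREBP-1c. DKO livers were measured on AMLN diet only, and no RNA-seq group lacked Tfe3 alone.

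The file headers name the tag directories behind each list, and several do not match the list's own label. The LiFKO+1c HA list pooled 2 directories named HA KOwithS with 1 named TFE3 WTwithS, whereas the Control+1c HA list pooled 3 named HA WTwithS. The FPC TFE3 lists of LiFKO, Control and Control+1c each pooled 2 TFE3 directories with 1 named input, and the FPC TFE3 list of LiFKO+1c pooled 3 TFE3 directories. As background, the FPC TFE3 lists of LiFKO, Control and Control+1c were each called over 1 TFE3 directory of their own group (KO, WT and WTwithS) and 1 named TFE3 TfKO, whereas that of LiFKO+1c was called over 1 named input KOwithS and 1 named TFE3 TfKO. The lists could not be recalled without these directories, so every share below rests on them. The FPC TFE3 lists of LiFKO and Control were built alike. Between the HA lists, and between the FPC TFE3 lists of LiFKO+1c and Control+1c, the part of these directories cannot be told apart from genotype. Between the FPC TFE3 lists of LiFKO+1c and LiFKO it cannot be told apart from the 1c virus.

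Many of the strongest shared sites lay at promoters, so RefSeq promoter sequences (GRCm38.p6, 250 bases before to 50 after the annotated start) of 7 genes are shown to make the binding letters visible. The deposited peaks are on mm9 and no mm9 genome was used here, so these are the promoters of the genes and not the bound segments. They run 5' to 3' on the strand of the gene, in lower case, with capitals marking TCACNCC (the core of the sterol regulatory element), CACGTG (an E-box) and CCAAT (the NF-Y box) on either strand. Srebf2, Pank3 and Sel1l are shown because each holds a sterol regulatory element core together with CCAAT. Their windows are chr15:82147019-82147318 (+ strand), chr11:35769245-35769544 (+ strand) and chr12:91849108-91849407 (- strand).
Srebf2: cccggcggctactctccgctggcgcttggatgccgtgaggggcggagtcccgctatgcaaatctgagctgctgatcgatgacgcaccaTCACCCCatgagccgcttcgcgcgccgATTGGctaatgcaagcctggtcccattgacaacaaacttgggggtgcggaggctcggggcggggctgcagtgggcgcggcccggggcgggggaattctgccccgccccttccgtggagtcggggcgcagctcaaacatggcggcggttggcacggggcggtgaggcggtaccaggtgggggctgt
Pank3: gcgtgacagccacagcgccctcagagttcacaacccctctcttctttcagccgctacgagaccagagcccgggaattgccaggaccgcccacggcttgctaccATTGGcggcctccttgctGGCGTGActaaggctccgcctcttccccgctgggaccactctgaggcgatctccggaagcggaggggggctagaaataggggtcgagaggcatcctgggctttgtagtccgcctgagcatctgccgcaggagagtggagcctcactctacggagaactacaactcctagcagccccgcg
Sel1l: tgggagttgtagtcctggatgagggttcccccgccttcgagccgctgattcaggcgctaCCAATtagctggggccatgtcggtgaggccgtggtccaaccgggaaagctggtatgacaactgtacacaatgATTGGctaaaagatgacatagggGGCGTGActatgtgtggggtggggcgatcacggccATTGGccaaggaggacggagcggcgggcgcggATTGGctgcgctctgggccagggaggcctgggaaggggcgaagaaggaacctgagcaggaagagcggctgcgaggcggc
Clcn6 and Max are shown because they hold the E-box and no TCACNCC, at chr4:148038764-148039063 (- strand) and chr12:76962199-76962498 (- strand).
Clcn6: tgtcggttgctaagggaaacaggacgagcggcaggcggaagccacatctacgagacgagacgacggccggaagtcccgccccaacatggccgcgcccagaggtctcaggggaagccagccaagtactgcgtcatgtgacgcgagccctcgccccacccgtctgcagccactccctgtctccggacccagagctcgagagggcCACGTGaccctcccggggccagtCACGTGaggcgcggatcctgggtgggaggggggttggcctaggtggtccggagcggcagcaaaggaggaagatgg
Max: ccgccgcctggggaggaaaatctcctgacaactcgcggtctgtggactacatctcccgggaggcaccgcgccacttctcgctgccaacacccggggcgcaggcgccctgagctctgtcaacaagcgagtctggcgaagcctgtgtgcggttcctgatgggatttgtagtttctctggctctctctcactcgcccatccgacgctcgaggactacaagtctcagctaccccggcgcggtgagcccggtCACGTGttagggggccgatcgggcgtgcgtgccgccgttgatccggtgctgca
Lss and Fasn, a sterol and a fatty acid synthesis gene, hold CCAAT but neither other motif in this window, at chr10:76531355-76531654 (+ strand) and chr11:120824498-120824797 (- strand).
Lss: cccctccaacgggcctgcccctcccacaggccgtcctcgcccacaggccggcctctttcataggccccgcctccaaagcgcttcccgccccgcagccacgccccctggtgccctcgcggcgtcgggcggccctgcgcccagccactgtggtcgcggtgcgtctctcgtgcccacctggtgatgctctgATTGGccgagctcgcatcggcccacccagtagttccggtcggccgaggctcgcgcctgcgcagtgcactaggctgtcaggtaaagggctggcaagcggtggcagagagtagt
Fasn: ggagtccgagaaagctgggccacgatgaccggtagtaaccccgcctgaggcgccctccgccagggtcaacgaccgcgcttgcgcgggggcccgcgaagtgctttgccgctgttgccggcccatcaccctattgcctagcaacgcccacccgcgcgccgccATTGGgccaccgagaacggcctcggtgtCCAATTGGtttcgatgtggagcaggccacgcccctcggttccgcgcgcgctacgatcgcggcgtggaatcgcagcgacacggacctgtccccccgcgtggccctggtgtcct

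The shared site at Srebf2, which encodes SREBP-2, had its centre 128 bp before the mm9 gene start, and the TCACNCC core began 162 bases before the GRCm38 start. At Pank3, a pantothenate kinase of coenzyme A synthesis, the site lay 101 bp and the core 129 bases before the start. At Sel1l, an adaptor of endoplasmic reticulum protein degradation, the site lay 164 bp and the core 96 bases before it. The 2 builds may place a gene start differently, so these distances are not offsets between protein and motif.

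Across promoters, 40 genes had a single RefSeq promoter and a shared site whose centre fell inside that window, out of 48 shared sites there. Of these, 32.5% held TCACNCC, against 34.6% of 26 promoters at LiFKO+1c-only sites, 25% of 48 at Control+1c-only sites and 15.8% of 7650 measured genes with 1 promoter. CCAAT occurred in 60.0% of the promoters with a shared site, against 76.9%, 54.2% and 39.5% in the same 3 sets in that order. TCACNCC together with CCAAT occurred in 20%, against 23.1%, 14.6% and 6.1%. The E-box CACGTG occurred in 10%, against 7.69%, 16.7% and 10.3%, so it was about as frequent as in all promoters. The longer form TCACGTG, which contains CACGTG, occurred in 7.5%, against 7.69%, 14.6% and 6.2%. CANNTG, which also contains CACGTG, occurred in 65.0% against 73.1%, 70.8% and 62.6%, and the SP1 box GGGCGG in 55.0% against 46.2%, 79.2% and 64.6%. All motifs were searched on both strands, and a match describes letters in the window and not an occupied element.

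The shared sites ranked alike in the 2 lists. The HOMER peak score, which is the authors' value and was read within a list only, ranged from 3.21 to 68.0 with a median of 8.3 in the LiFKO+1c list and from 3.14 to 58.9 with a median of 8.7 in the Control+1c list. Peaks found in 1 list only had medians of 5.2 in the LiFKO+1c list and 5.32 in the Control+1c list. In all, 471 shared sites lay above the median of both lists and 126 lay below both. The scores of the shared sites correlated across sites with a Pearson r of 0.895 on the log2 scale and a Spearman rho of 0.873 (n = 695 sites), within 2 pooled lists. In 5 bins of rising Control+1c score with about equal numbers of peaks, the percentage of sites that were shared was 8.27%, 22.9%, 40.4%, 54.6% and 81.8%, so the weaker peaks of the Control+1c list were less often shared.

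The overlap that defined the sites was mostly near complete. All peaks were 177 bp wide, the median overlap was 156 bp, and centres were 21 bp apart at the median and 115 bp at most. The smallest overlaps were 62, 66, 67, 70 and 74 bp. Just outside the rule, the nearest unpaired peaks were separated by gaps of 10, 354 and 487 bp, and only these 3 Control+1c peaks without a partner lay within 500 bp of a LiFKO+1c peak.

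**Figure D1:**
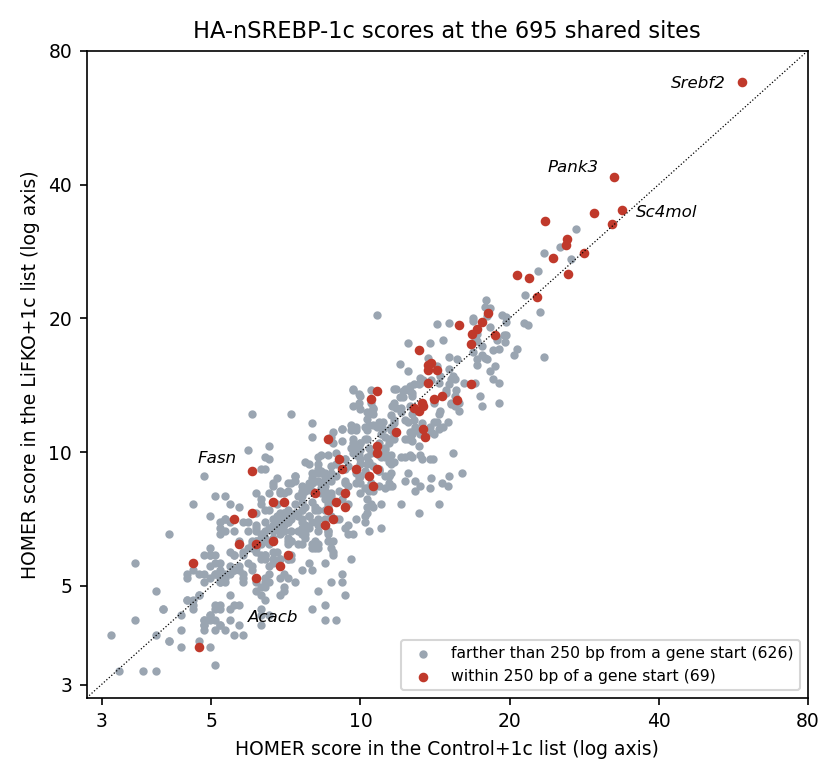
HOMER peak scores at the 695 shared sites in the LiFKO+1c list (vertical, log axis) and the Control+1c list (horizontal, log axis), with sites within 250 bp of a gene start in red and a dotted diagonal as a guide. High scores in one list go with high scores in the other, up to the Srebf2 site at 68.0 in LiFKO+1c and 58.9 in Control+1c, and the red points gather at high scores.

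Most shared sites were far from gene starts. The centre of 203 sites (29.2%) lay more than 50 kb from the nearest start of a measured gene, 253 (36.4%) lay within 10 kb, 99 (14.2%) within 1 kb and 69 (9.93%) within 250 bp, and 297 (42.7%) lay inside a measured gene. LiFKO+1c-only sites had 6.99% and Control+1c-only sites 8.14% within 250 bp. Strong sites lay at promoters more often. In 4 bins of about equal size and rising Control+1c score, 4.55%, 5.03%, 8.98% and 21.4% of the shared sites were within 250 bp of a start. The 253 sites within 10 kb were nearest to 243 genes, of which 233 had 1 site and 10 had 2.

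The highest score in both lists belonged to the Srebf2 promoter (chr15:81977480-81977656 on mm9, as for all sites), with 68.0 in LiFKO+1c and 58.9 in Control+1c. Sc4mol, now called Msmo1, a sterol demethylase, followed in Control+1c with scores of 35.0 in LiFKO+1c and 33.7 in Control+1c at chr8:67212437-67212613. Pank3 had 41.7 in LiFKO+1c and 32.5 in Control+1c at chr11:35582797-35582973. Lss, lanosterol synthase, had 32.6 in LiFKO+1c and 32.2 in Control+1c at chr10:75994211-75994387. Acss2, which makes acetyl-CoA from acetate, had 28.1 in LiFKO+1c and 28.3 in Control+1c at chr2:155343351-155343527. Genes of sterol and coenzyme A metabolism thus stood beside others with no such known role. Traf7, a ubiquitin ligase, had 34.6 in LiFKO+1c and 29.6 in Control+1c. Clcn6, a chloride and proton exchanger of late endosomes, had 25.2 and 26.2. Men1, which encodes menin, had 33.2 and 23.6. Rdh11, a retinol dehydrogenase, had 31.8 and 27.3, with its site 1248 bp inside the gene as the expression table places it, although the authors' deposited table annotates a TFE3 peak there as promoter. The remaining named top sites were nearest to Sel1l (29.2 and 26), Mtap9 (now Map9, 30.1 and 26.1), Pstpip2 (27.2 and 26.6), Dnpep (27.4 and 24.5) and Dpt (16.4 and 23.5), each with the LiFKO+1c score first. The sites of Mtap9, Sel1l and Dnpep lay 92, 164 and 166 bp before the gene, and that of Dpt 8704 bp before it. The Pstpip2 site lay inside the gene, 2553 bp from the nearer end.

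A large part of the shared sites also carried a TFE3 peak, and how large depended on the list. With 1c virus on FPC diet, 85.0% of the shared sites overlapped a TFE3 peak of LiFKO+1c livers and 29.6% overlapped one of Control+1c livers. Without the virus on FPC diet, the shares were 65.2% for LiFKO and 26.8% for Control. On chow they were 56.3% for LiFKO and 35.3% for Control. The lists differ in length in the same order, with 35325 peaks for FPC LiFKO+1c against 10827 for FPC Control+1c, 27751 for FPC LiFKO against 9647 for FPC Control, and 26445 for chow LiFKO against 11385 for chow Control. As a share of each TFE3 list, peaks at shared sites made up 1.67% for FPC LiFKO+1c against 1.9% for FPC Control+1c, 1.63% for FPC LiFKO against 1.93% for FPC Control, and 1.48% for chow LiFKO against 2.15% for chow Control. Each list is 1 pooled call, so these shares have no replicate error and were not tested. The LiFKO+1c HA list, on which the shared and LiFKO+1c-only sites rest, pooled 1 directory named TFE3 WTwithS. If that name is right, TFE3 signal entered the choice of these sites, and part of the overlap may be built in. The size of that part was not tested.

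The comparison sets gave the same order of lists. For FPC LiFKO+1c the share was 85.0% at shared sites, 74.6% at LiFKO+1c-only sites and 70.4% at Control+1c-only sites. For FPC Control+1c it was 29.6%, 25.3% and 26.4% in the same order of sets, for FPC LiFKO 65.2%, 61.9% and 56.8%, and for FPC Control 26.8%, 22.0% and 22.7%. For chow LiFKO it was 56.3%, 54.9% and 50.3%, and for chow Control 35.3%, 30.7% and 33.6%. Over all sites, shared sites had the highest share in all 6 lists. This did not hold within 1 kb of a gene start, where the FPC Control+1c share was 22.2% at shared sites, 34.7% at LiFKO+1c-only sites and 33.3% at Control+1c-only sites, the chow LiFKO share 49.5%, 52.8% and 50%, and the FPC Control share 32.3%, 33.3% and 26.3%. They also had higher HA scores, and within the 5 bins of the Control+1c score the FPC LiFKO+1c share still ran from 77.4% to 89.7% at shared sites, against 64.8% to 78.3% at Control+1c-only sites. In the same bins, from low to high score, the FPC Control+1c share was 19.4%, 21.9%, 23.2%, 33.2% and 33.8% at shared sites, against 21.2%, 28.9%, 25.5%, 34% and 30.0% at Control+1c-only sites, so it was lower at shared sites in 4 of the 5 bins. These shares moved with the definition of overlap, and fell to 78.3% for FPC LiFKO+1c and 41.4% for chow LiFKO when at least 50% of each peak had to be covered.

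**Figure D2:**
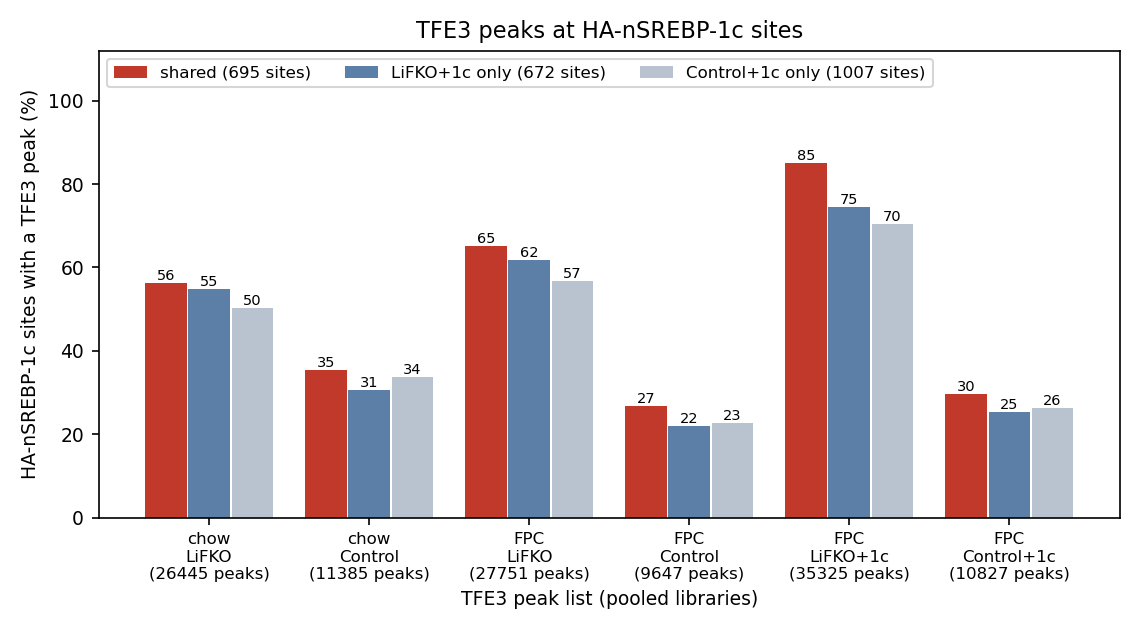
Percentage of HA-nSREBP-1c sites that overlap a TFE3 peak (vertical) in each of 6 pooled TFE3 lists (horizontal), for the 695 shared sites, the 672 LiFKO+1c-only sites and the 1007 Control+1c-only sites. The LiFKO lists hold more of the sites than the Control lists in all 3 sets, with 85.0% against 29.6% of the shared sites on FPC diet with the 1c virus.

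By combination of lists, 88 shared sites (12.7%) had a TFE3 peak in all 6 lists. Peaks in all 3 LiFKO lists and no Control list occurred at 59 sites (8.49%), in the FPC LiFKO+1c list alone at 89 (12.8%), and in other sets of LiFKO lists alone at 107 (15.4%). A further 267 sites (38.4%) had peaks in some LiFKO and some Control lists, 4 (0.576%) in Control lists only, and 81 (11.7%) in none. Sites with no TFE3 peak in any list made up 19.3% of LiFKO+1c-only and 22.0% of Control+1c-only sites. HA scores gave little separation: the median Control+1c score was 9.06 at shared sites in all 6 lists and 8.46 at those in none.

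The named sites spread over these classes. Sc4mol, Mvd (mevalonate diphosphate decarboxylase), Elovl5 (a fatty acid elongase), Insig1 (a retention factor of the SREBP precursor), Pcyt2 (phosphatidylethanolamine synthesis) and Gdf15 (a stress-induced cytokine) had sites in all 6 TFE3 lists. Cln6, a membrane protein of lysosomal enzyme export, and Chrna4, a nicotinic receptor subunit, had sites in the 3 LiFKO lists only, as did Men1 and Mtap9. The sites of Acss2, Traf7, Sel1l and Scd2 had a TFE3 peak in no list.

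The authors' deposited table of differential TFE3 peaks lists 96 peaks with higher TFE3 signal in LiFKO+1c than in LiFKO livers on FPC diet. By overlap, 36 of the 96 (37.5%) lay at shared sites, which is 5.18% of those sites. Another 11 lay at LiFKO+1c-only sites (1.64% of them) and 15 at Control+1c-only sites (1.49%). In the authors' deposited table the log2 fold changes at shared sites ran from 1.45 to 5.16 with a median of 2.35, against a median of 2.31 over all 96. Per the same deposited table, the promoter of Rdh11 had a log2 fold change of 1.606 (authors' adjusted p = 0.0129). The authors' deposited table gives 2.494 for an intron of Pltp, the phospholipid transfer protein (authors' adjusted p = 0.029), and 2.2 for an intron of Mr1, an antigen-presenting molecule (authors' adjusted p = 1.04e-05). The 2 largest values in the deposited table at shared sites, 5.157 and 4.797, were assigned to Cdkn2b and Smox, with distances to the start of -137898 and -43549 bp. The headers of that table name 1 input directory among the 3 behind the LiFKO background, so its part in these fold changes cannot be told apart from the virus. Pltp, Mr1, Cdkn2b and Smox were chosen after their values were seen.

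A shared site was more frequent near listed genes of lipid synthesis than near all measured genes. A shared site lay within 10 kb of the start of 13 of the 23 measured cholesterol synthesis and uptake genes (56.5%, of 25 listed), of 10 of 23 fatty acid synthesis genes (43.5%), of 4 of 7 genes of SREBP processing (57.1%) and of 2 of 10 glycerolipid synthesis genes (20%). None of 17 lysosomal and TFE3 target genes had one within 10 kb. Of all 13815 measured genes, 295 (2.14%) had a shared site within 10 kb. These lists were written with earlier results of these data known. At 1 kb the counts were 12, 8, 3, 1 and 0, and at 50 kb 14, 12, 4, 4 and 2, in the same order of lists. Within 10 kb, a LiFKO+1c-only site lay near 4, 5, 1, 0 and 1 genes of these lists, and a Control+1c-only site near 4, 9, 0, 3 and 1. Fatty acid and glycerolipid genes thus had a Control+1c-only site, from a larger set of sites, about as often as a shared one.

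The cholesterol genes with a shared site included Mvd, Idi1, Fdps, Sqle, Lss, Cyp51, Sc4mol, Nsdhl, Dhcr7 and Stard4, and in all of these but Dhcr7 the site lay within 316 bp of the start. The fatty acid genes were Acly, Acacb, Fasn, Elovl5, Scd1, Scd2, Fads1, Acss2, Mid1ip1 and Pklr. Fasn, fatty acid synthase, had a weak site by score, 9.07 in LiFKO+1c and 6.04 in Control+1c, 9 bp from its start. Acacb, the mitochondrial acetyl-CoA carboxylase, had 4.76 and 5.44 at 294 bp. Some well-known members had no shared site but a site in 1 list: Hsd17b7, Mvk, Fads2, Slc25a1 and Gpam had Control+1c-only sites at 63, 118, 409, 68 and 48 bp. Insig1 and Srebf1, the gene of SREBP-1 itself, had shared sites at 213 and 278 bp, and Insig2 and Srebf2 at 3382 and 128 bp, while Scap, Mbtps1 and Mbtps2, the precursor's escort and its proteases, had none within 10 kb. Fdft1 had a LiFKO+1c-only site at 239 bp and a Control+1c-only site at 3606 bp.

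Expression of the nearby genes was then compared between livers. Values are log2 expression, quantile normalized by the authors across 15 libraries, and a gene was called at a Benjamini-Hochberg adjusted p below 0.05 in limma over all 13815 genes. Fold changes are log2 differences ± SE. Flcn, the deleted gene, was lower in LiFKO livers on chow (-1.03 ± 0.17, adjusted p = 0.000394) and on AMLN diet (-0.57 ± 0.17, adjusted p = 0.0257), the second call being lost without LiFKO replicate 1 or 3 or Control replicate 1 or 3 (adjusted p = 0.0592 to 0.102). It was lower still in DKO than LiFKO livers (-0.92 ± 0.17, adjusted p = 0.00242). Tfe3 was 9.99 ± 0.18 in DKO, 10 ± 0.08 in LiFKO and 10.24 ± 0.05 in Control livers on AMLN diet (mean ± SD, n = 3 each), so the whole-gene value does not check the deletion, and these are the libraries labelled DKO throughout. Replicates correlated at 0.9706 to 0.9878. Marker levels are given as the lowest and highest library mean of each group. Hepatocyte markers (6 of 6 measured) averaged 18.41 to 18.49 in AMLN DKO and 18.02 to 18.21 in AMLN LiFKO against 18.23 to 18.51 in AMLN Control, and 18.04 to 18.50 in chow LiFKO against 18.46 to 18.73 in chow Control, so AMLN LiFKO lay below both other AMLN groups. Endothelial markers (4 of 4) averaged 11.20 to 11.42 in AMLN LiFKO against 10.78 to 10.89 in AMLN Control, and 11.03 to 11.47 in chow LiFKO against 10.51 to 10.93 in chow Control. In AMLN DKO they averaged 11.03 to 11.19, also above AMLN Control. Macrophage markers (5 of 5) averaged 11.75 to 12.40 in AMLN LiFKO against 11.50 to 11.74 in AMLN Control. Their ranges overlapped on chow (11.33 to 11.60 in LiFKO, 10.78 to 11.73 in Control), and AMLN DKO had 11.05 to 11.90. Stellate cell markers (5 of 5) averaged 10.20 to 10.37 in AMLN LiFKO and 10.49 to 10.93 in AMLN Control, against 9.54 to 9.86 in chow Control. Chow LiFKO had 9.40 to 10.03, which overlapped chow Control, and AMLN DKO had 10.25 to 11.09. Erythroid markers (3 of 4) averaged 12.34 to 12.96 in chow LiFKO against 13.17 to 14.13 in chow Control. On AMLN diet the LiFKO and Control ranges overlapped (12.79 to 13.61 and 13.09 to 13.91), and DKO had 12.75 to 13.23. Cholangiocyte markers (4 of 4) averaged 6.21 to 6.41 in AMLN LiFKO and 6.22 to 6.35 in AMLN DKO against 6.48 to 6.64 in AMLN Control. On chow they went the other way, with 6.34 to 6.68 in LiFKO against 6.08 to 6.34 in Control. The part of these cell types in the results below was not tested. In these whole-liver values, fewer cells of a type and less RNA per cell cannot be told apart. No counts were given, so depth is unknown.

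The 243 genes nearest to a shared site within 10 kb were called more often than all genes in most comparisons. In LiFKO against Control livers on chow, 48 (19.8%) were higher, against 12.5% of all genes, and 44 (18.1%) were lower, against 13.2%. On AMLN diet 37 (15.2%) were higher, against 10.1% of all genes, and 48 (19.8%) lower, against 9.63%. In AMLN DKO against LiFKO livers 28 (11.5%) were higher, against 5.05%, and 20 (8.23%) lower, against 5.97%. In DKO against Control livers on AMLN diet, 2 were higher and 2 lower (0.823% each), against 0.449% and 0.203% of all genes. The diet changed 55 (22.6%) upward and 26 (10.7%) downward in Control livers, against 11.2% and 11.6% of all genes. In LiFKO livers it changed 14 (5.76%) upward and 6 (2.47%) downward, against 1.58% and 2.16%. The LiFKO effect differed between diets at 9 genes (3.7%), all with a lower value on AMLN diet, against 0.76% of all genes in that direction and 0.282% in the other (1.04% in all). The comparisons of DKO and of Control with LiFKO livers on AMLN diet share the LiFKO libraries, so their opposite signs are not independent. Single libraries moved some of these shares by more than 1.5 times, and the shares of all genes with them. The share higher with diet in Control livers was 14% without AMLN Control replicate 1 (all genes 6.95%) and 14.8% without chow Control replicate 1 or 2, and the share lower was 4.94%, 5.35% and 5.76% without AMLN Control replicate 1, AMLN Control replicate 2 and chow Control replicate 1. The share higher in DKO than LiFKO livers was 7.0%, 7.41% and 6.58% without DKO replicate 2, DKO replicate 3 and AMLN LiFKO replicate 3 (all genes 2.74%, 3.37% and 2.96%). The share lower there was 5.35% without AMLN LiFKO replicate 1. The share higher with diet in LiFKO livers was 2.47%, 2.88% and 3.29% without AMLN LiFKO replicate 1, 2 and 3 and 1.65% and 2.06% without chow LiFKO replicate 1 and 2, and the share lower was 0.823% without AMLN LiFKO replicate 1 and 1.23% without AMLN LiFKO replicate 2 or chow LiFKO replicate 1 or 3. The share higher in DKO than Control livers was 2.06% without DKO replicate 1, 0.412% without Control replicate 3 and 0.0% without DKO replicate 2 or 3 or Control replicate 1, and the share lower was 0.0% without DKO replicate 2 or 3 or Control replicate 1 or 3. The share with a negative difference between diets was 2.06% without AMLN LiFKO replicate 2, AMLN Control replicate 1 or chow LiFKO replicate 3, 1.65% without AMLN Control replicate 2, 1.23% without chow Control replicate 2 and 5.76% without AMLN Control replicate 3, and the share with a positive one was 0.823% without AMLN Control replicate 3.

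**Figure D3:**
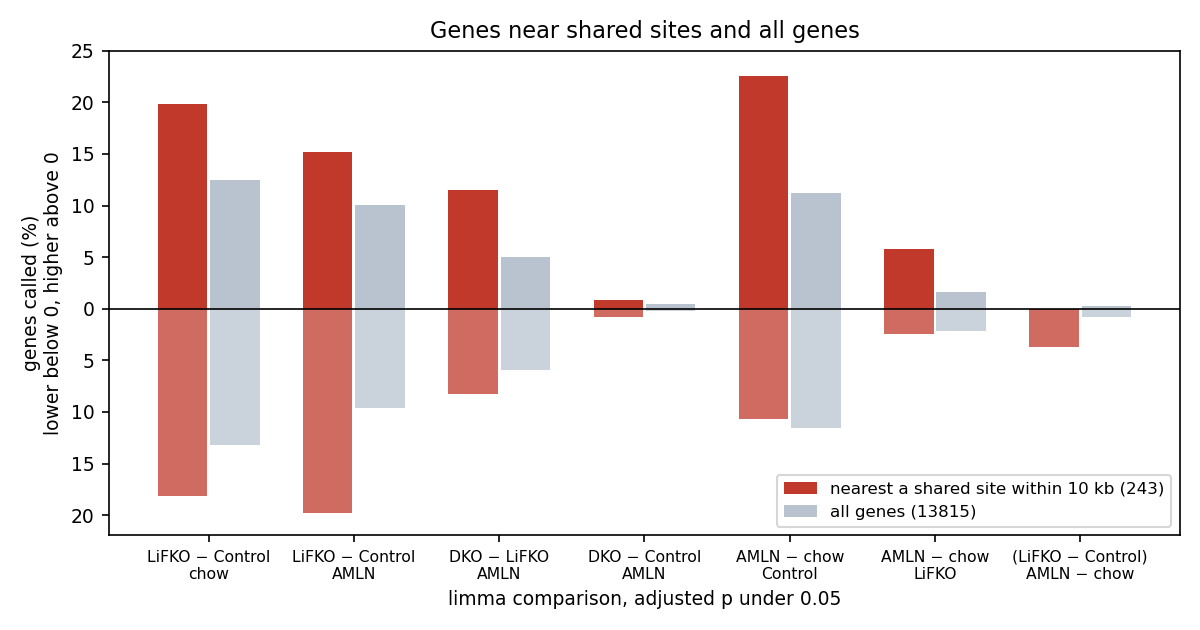
Percentage of genes called higher (above 0) and lower (below 0) at an adjusted p under 0.05 in 7 limma comparisons, for the 243 genes nearest to a shared site within 10 kb (red) and all 13815 genes (grey). The red bars exceed the grey ones in both directions for LiFKO against Control on both diets and DKO against LiFKO, and the red bar is the shorter one for genes that fell with AMLN diet in Control livers (10.7% against 11.6%).

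Genes near sites of a single list were also called often. On AMLN diet, LiFKO against Control, 20% of 215 genes near LiFKO+1c-only sites were higher and 13.5% lower, and 12.1% of 372 genes near Control+1c-only sites were higher and 16.4% lower. On chow, 23.7% and 11.6% of the genes near LiFKO+1c-only sites were higher and lower, and 18.5% and 19.6% of those near Control+1c-only sites. The 98 genes with a shared site within 1 kb leaned downward in LiFKO livers, with 11.2% higher and 24.5% lower on AMLN diet and 15.3% higher and 24.5% lower on chow. In DKO against LiFKO livers 18.4% of the 98 were higher and 10.2% lower. Median log2 fold changes of the 243 genes stayed near 0, at 0.01 on chow, -0.06 on AMLN diet and 0.05 for DKO against LiFKO, against -0.05, -0.02 and 0.02 for all genes.

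TFE3 overlap divided the nearby genes as follows. The 37 genes whose shared site was in all 6 TFE3 lists had 24.3% higher and 13.5% lower in LiFKO than Control livers on chow, 21.6% and 10.8% on AMLN diet, and 5.41% higher and 18.9% lower in DKO than LiFKO livers. The 26 genes whose site was in no TFE3 list had 7.69% higher and 19.2% lower on chow, 11.5% each on AMLN diet, and 15.4% higher and 3.85% lower in DKO than LiFKO livers. The counts behind these shares are small, and the difference between the classes was not tested. Splitting by the chow LiFKO list alone gave nearly equal shares on chow, with 19.7% higher and 17.4% lower among 132 genes with a TFE3 peak and 19.8% and 18.9% among 111 without one. On the FPC LiFKO list the same split gave 21.2% higher and 15.3% lower among 170 genes with a peak and 16.4% and 24.7% among 73 without one.

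Among the 13 cholesterol genes with a shared site, 8 were lower and none higher in LiFKO than Control livers on chow, with a median log2 fold change of -1.25, against 25.7% of all genes called in either direction. On AMLN diet 8 were lower and none higher (median -1.24, against 19.7% of all genes called). In DKO against LiFKO livers 4 were higher and none lower (median 0.37, against 11% of all genes called). In the whole list of 23, 13 were lower on each diet and 9 were higher in DKO than LiFKO livers. Without chow Control replicate 3 the count of 8 on chow became 5, and without AMLN Control replicate 1 or 3 the count on AMLN diet became 5. The count of 4 for DKO became 2 without DKO replicate 2, or without AMLN LiFKO replicate 1 or 3.

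Idi1, isopentenyl diphosphate isomerase, had 8.20, 8.22 and 10.83 in LiFKO livers on chow, against 11.72, 11.59 and 12.84 in Control livers. The third LiFKO library was well above the other two, and the groups did not overlap (-2.96 ± 0.54, adjusted p = 0.000975). On AMLN diet Idi1 had 10.23, 10.25 and 9.89 in DKO and 8.53, 8.17 and 8.41 in LiFKO livers, against 10.90, 10.34 and 11.26 in Control livers. All LiFKO values lay below both other groups (-2.46 ± 0.54, adjusted p = 0.00474 for LiFKO against Control). DKO livers were higher than LiFKO livers (1.75 ± 0.54, adjusted p = 0.0498), a call lost without DKO replicate 1, 2 or 3 or LiFKO replicate 1, 2 or 3 (adjusted p = 0.0857 to 0.13).

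Cyp51, lanosterol demethylase, had 9.70, 9.39 and 10.92 in LiFKO against 12.22, 12.01 and 12.79 in Control livers on chow, with no overlap (-2.34 ± 0.36, adjusted p = 0.000252). On AMLN diet it had 10.81, 10.66 and 9.95 in DKO, 9.04, 9.17 and 8.91 in LiFKO and 11.26, 10.63 and 11.67 in Control livers, and all 3 LiFKO libraries were the lowest (-2.15 ± 0.36, adjusted p = 0.000703 for LiFKO against Control). DKO livers were higher than LiFKO livers (1.43 ± 0.36, adjusted p = 0.0188), a call lost without DKO replicate 1 or 2 or LiFKO replicate 1 or 3 (adjusted p = 0.0508 to 0.0702). Stard4, a cytosolic sterol transfer protein, had 10.82, 10.80 and 11.61 in LiFKO against 12.92, 12.64 and 13.09 in Control livers on chow, again without overlap (-1.81 ± 0.19, adjusted p = 1.1e-05). On AMLN diet Stard4 had 12.11, 12.31 and 12.37 in DKO, 10.77, 10.70 and 10.85 in LiFKO and 12.27, 12.09 and 12.57 in Control livers. The LiFKO values were the lowest, DKO and Control values overlapped, and both LiFKO comparisons were called (-1.54 ± 0.19, adjusted p = 6.67e-05 against Control; 1.49 ± 0.19, adjusted p = 0.000162 for DKO against LiFKO).

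The other sterol genes split by diet. Sqle, squalene epoxidase, and Sc4mol were lower in LiFKO livers on chow (-1.51 ± 0.45 and -1.25 ± 0.32) but had adjusted p = 0.0964 and 0.0925 on AMLN diet. The chow calls were lost without LiFKO replicate 1 or 2 or Control replicate 3 (adjusted p = 0.0761 to 0.104) for Sqle and without Control replicate 3 (adjusted p = 0.0516) for Sc4mol. Lss and Dhcr7, the last reductase of the pathway, were lower on AMLN diet (-0.69 ± 0.19 and -1.27 ± 0.25) but had adjusted p = 0.29 and 0.337 on chow, and Lss lost its call without LiFKO replicate 1 or Control replicate 1 or 3 (adjusted p = 0.0598 to 0.0848). None of these 4 had a called difference of the LiFKO effect between diets. Nsdhl, a sterol dehydrogenase, was lower on both diets (-1.55 ± 0.39 on chow, -1.24 ± 0.39 on AMLN), the AMLN call being lost without LiFKO replicate 2 or 3 or Control replicate 1, 2 or 3 (adjusted p = 0.0536 to 0.115). Mvd was lower on both (-1.10 ± 0.38 and -1.25 ± 0.38), and its chow call was lost with the replicate number as a block (adjusted p = 0.0636) and without LiFKO replicate 1 or 3 or Control replicate 1 or 3 (adjusted p = 0.0752 to 0.197). Its AMLN call was lost without LiFKO replicate 1 or 2 or Control replicate 1 or 3 (adjusted p = 0.0791 to 0.1). Fdps, farnesyl diphosphate synthase, had positive values on both diets (0.54 ± 0.35 and 0.43 ± 0.35) and passed on neither (adjusted p = 0.281 and 0.439).

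**Figure D4:**
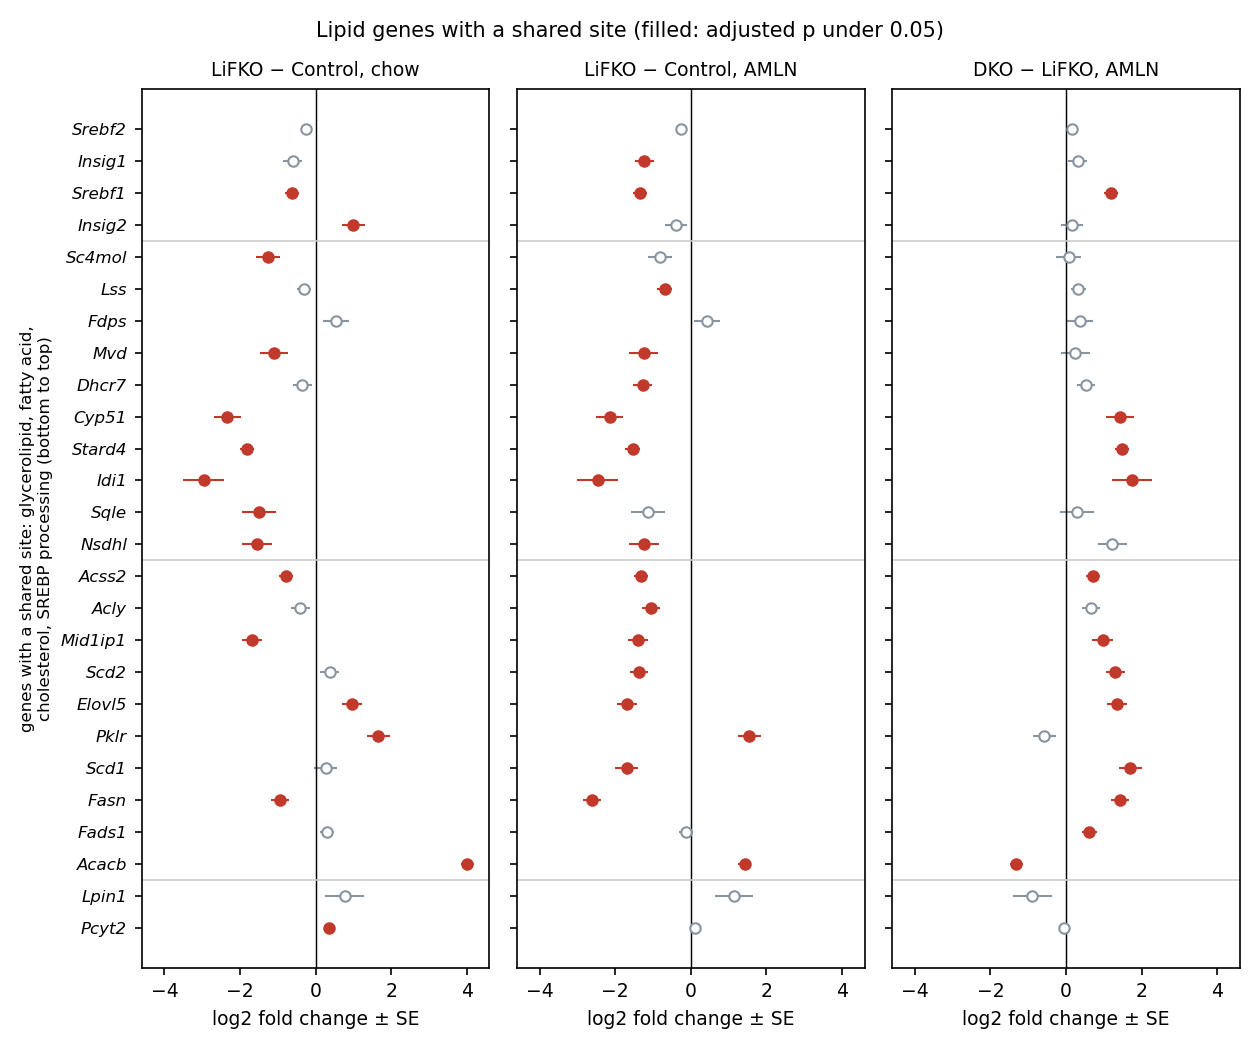
Log2 fold change ± SE (horizontal) of 26 of the 29 lipid genes with a shared site within 10 kb (rows), for LiFKO against Control on chow, LiFKO against Control on AMLN diet and DKO against LiFKO on AMLN diet. Filled points passed an adjusted p of 0.05. On AMLN diet the called cholesterol genes and most called fatty acid genes lie left of 0 for LiFKO, and Acacb and Pklr lie right of it.

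Fatty acid genes with a shared site moved with the diet. In Control livers 8 of the 10 were higher on AMLN diet than on chow and none lower (median 1.77), against 22.8% of all genes called in either direction. In LiFKO livers 3 of 10 were higher and none lower (median 0.65), against 3.74% of all genes called. In LiFKO against Control livers, 3 were higher and 3 lower on chow (median 0.29, against 25.7% of all genes called), and 2 were higher and 7 lower on AMLN diet (median -1.34, against 19.7% of all genes called). In DKO against LiFKO livers 7 were higher and 1 lower (median 0.84, against 11% of all genes called). In the whole list of 23, 2 were higher and 15 lower in AMLN LiFKO than Control livers, and 14 were higher and 1 lower in DKO than LiFKO livers. The count of 7 became 4 without DKO replicate 2 or 3 or AMLN LiFKO replicate 2. The 3 higher on chow became 5 without chow LiFKO replicate 1.

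Fasn had 14.77, 14.45 and 14.74 in DKO and 13.20, 13.35 and 13.13 in LiFKO livers, against 16.15, 15.55 and 15.81 in Control livers on AMLN diet, with no overlap among the 3 groups. LiFKO livers were lower than Control livers (-2.61 ± 0.24, adjusted p = 6.27e-06), and DKO livers were higher than LiFKO livers (1.43 ± 0.24, adjusted p = 0.00163) and lower than Control livers (-1.18 ± 0.24, adjusted p = 0.0421). The last call was lost without DKO replicate 2 or 3 or Control replicate 1 or 3 (adjusted p = 0.0672 to 0.179). On chow Fasn had 11.81, 12.17 and 12.78 in LiFKO against 13.58, 12.68 and 13.34 in Control livers, and the groups overlapped (-0.95 ± 0.24, adjusted p = 0.0102). That call was lost without LiFKO replicate 1 or Control replicate 1 (adjusted p = 0.0526 to 0.0531).

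Elovl5 had 13.55, 14.21 and 14.31 in LiFKO against 12.78, 13.05 and 13.37 in Control livers on chow, higher in LiFKO without overlap (0.96 ± 0.26, adjusted p = 0.0147), a call lost without LiFKO replicate 2 or 3 or Control replicate 1 (adjusted p = 0.0555 to 0.0662). On AMLN diet LiFKO livers were the lowest, with 15.82, 15.80 and 15.36 in DKO, 14.77, 14.34 and 13.81 in LiFKO and 16.23, 16.17 and 15.56 in Control livers (-1.68 ± 0.26, adjusted p = 0.000431 for LiFKO against Control). Acss2 had 12.06, 12.43 and 12.39 in DKO, 11.70, 11.38 and 11.65 in LiFKO and 12.81, 12.70 and 13.17 in Control livers on AMLN diet, and the LiFKO values were the lowest (-1.31 ± 0.18, adjusted p = 0.000181 for LiFKO against Control). Scd2, a stearoyl-CoA desaturase, had 13.39, 13.81 and 13.54 in DKO, 12.60, 11.82 and 12.40 in LiFKO and 13.26, 13.98 and 13.65 in Control livers. Its LiFKO values lay below the other groups (-1.36 ± 0.24, adjusted p = 0.00122 for LiFKO against Control).

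Scd1, the main hepatic desaturase, had 19.12, 18.75 and 18.98 in LiFKO livers on AMLN diet, and 20.65 in all 6 DKO and Control libraries. The last value is the second rank of the quantile-normalized scale in each of those libraries, so its spread of 0 is not a replicate error. On that scale LiFKO livers were lower than Control livers (-1.70 ± 0.30, adjusted p = 0.000973). Mid1ip1, an activator of acetyl-CoA carboxylase, was lower in LiFKO livers on both diets (-1.69 ± 0.27 on chow, -1.40 ± 0.27 on AMLN). Acly, ATP citrate lyase, was lower on AMLN diet (-1.05 ± 0.24), with adjusted p = 0.243 on chow. Fads1, a desaturase of polyunsaturated fatty acids, passed in neither comparison of LiFKO with Control (adjusted p = 0.255 on chow and 0.719 on AMLN). In DKO against LiFKO livers Acss2, Mid1ip1 and Fads1 were higher (0.72 ± 0.18, 0.97 ± 0.27 and 0.62 ± 0.19). These calls were lost without DKO replicate 2 or 3 or LiFKO replicate 2 (adjusted p = 0.0718 to 0.0861) for Acss2, without DKO replicate 2 or 3 or LiFKO replicate 1 or 2 (adjusted p = 0.0969 to 0.104) for Mid1ip1 and without DKO replicate 1, 2 or 3 or LiFKO replicate 2 or 3 (adjusted p = 0.076 to 0.165) for Fads1.

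Acacb and Pklr, liver pyruvate kinase, were higher in LiFKO livers on both diets. Acacb had 14.93, 14.86 and 14.78 in LiFKO against 11.17, 10.38 and 11 in Control livers on chow, the widest chow difference among the 29 lipid genes with a shared site (4.01 ± 0.17, adjusted p = 4.39e-09). On AMLN diet it had 13.32, 13.16 and 13.17 in DKO, 14.50, 14.23 and 14.86 in LiFKO and 13.14, 13 and 13.16 in Control livers. The LiFKO values were the highest there, DKO and Control values met at 13.16, and LiFKO exceeded Control (1.43 ± 0.17, adjusted p = 6.32e-05). Pklr had 14.42, 14.98 and 15.94 in DKO, 15.51, 15.66 and 15.88 in LiFKO and 14.03, 14.23 and 14.15 in Control livers on AMLN diet. LiFKO exceeded Control without overlap (1.55 ± 0.31, adjusted p = 0.00266), and the DKO range reached into the LiFKO range (adjusted p = 0.275).

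Of the 4 SREBP processing genes with a shared site, 1 was higher and 1 lower in LiFKO than Control livers on chow (25.7% of all genes called in either direction), 2 were lower on AMLN diet (19.7% of all genes), and 1 was higher in DKO than LiFKO livers (11% of all genes). Srebf1 had 14.72, 14.74 and 14.78 in DKO, 13.29, 13.62 and 13.76 in LiFKO and 14.93, 14.72 and 15.07 in Control livers on AMLN diet, with the LiFKO libraries lowest (-1.35 ± 0.18, adjusted p = 0.000158 for LiFKO against Control; 1.19 ± 0.18, adjusted p = 0.000842 for DKO against LiFKO). On chow it had 12.33, 12.24 and 12.63 in LiFKO against 13.54, 12.84 and 12.72 in Control livers (-0.63 ± 0.18, adjusted p = 0.0211), a call lost without LiFKO replicate 1 or 2 or Control replicate 1 (adjusted p = 0.0648 to 0.092). The value is for the whole gene and does not separate its transcripts. Srebf2, with the strongest site, had 11.27, 10.98 and 10.88 in DKO, 10.85, 10.80 and 11.05 in LiFKO and 11.19, 10.95 and 11.34 in Control livers on AMLN diet. It passed no LiFKO comparison (adjusted p = 0.142 on chow and 0.166 on AMLN). Insig1 was lower in LiFKO livers on AMLN diet (-1.23 ± 0.25) and Insig2 higher on chow (1.00 ± 0.30). On the other diet Insig1 had adjusted p = 0.0946 and Insig2 0.406, and the Insig2 call on chow was lost without LiFKO replicate 1, 2 or 3 or Control replicate 1 or 2 (adjusted p = 0.0517 to 0.0934). Of the glycerolipid genes, Pcyt2 was higher on chow (0.36 ± 0.07), and Lpin1, a phosphatidate phosphatase, passed neither (adjusted p = 0.302 and 0.138).

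**Figure D5:**
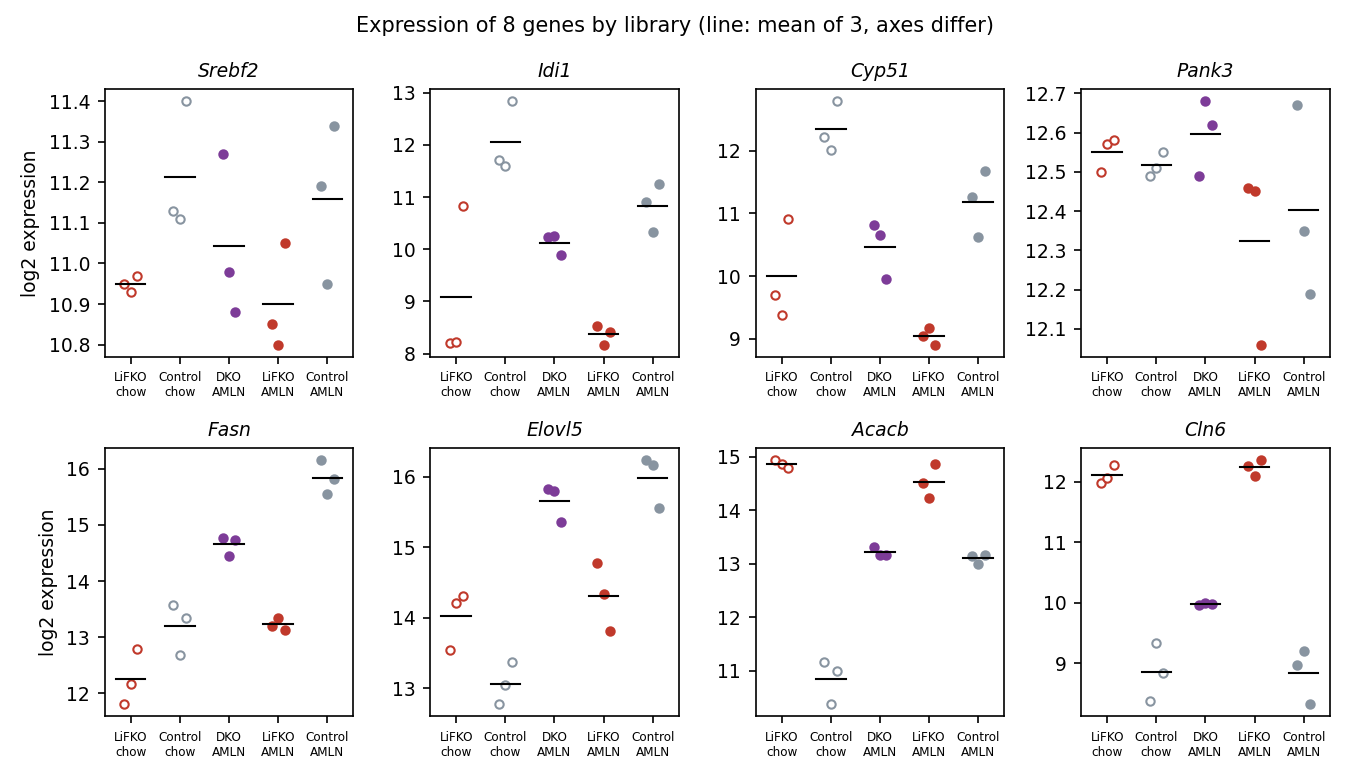
Log2 expression (vertical, axes differ) of 8 genes with a shared site in each of 15 RNA-seq libraries, by group (horizontal), with a line at the mean of 3 libraries. Open points are chow and filled points AMLN diet. The LiFKO libraries on AMLN diet are the lowest of that diet for Idi1, Cyp51, Fasn and Elovl5 and the highest for Acacb and Cln6, and the AMLN groups overlap for Srebf2 and Pank3.

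Outside the lipid lists, Nupr1, Cln6, Gdf15 and Ddit4 were the genes near shared sites with the largest rises in LiFKO livers on chow. Nupr1, a stress-induced chromatin protein, had 9.21, 9.51 and 10.24 in LiFKO against 2.55, 6.07 and 4.82 in Control livers on chow, with wide spread in Control (5.17 ± 0.64, adjusted p = 4.69e-05). The Nupr1 value of 2.55 is the lowest of any gene in that library, so the size of this rise rests in part on a floor value. Its shared site lay 9907 bp before the start, at the edge of the 10 kb window. Cln6 had 11.97, 12.06 and 12.28 in LiFKO against 8.38, 9.34 and 8.84 in Control livers on chow (3.25 ± 0.22, adjusted p = 2.19e-07). On AMLN diet Cln6 had 9.96, 9.99 and 9.98 in DKO, 12.26, 12.09 and 12.35 in LiFKO and 8.98, 9.21 and 8.33 in Control livers, and the 3 groups did not overlap. The DKO libraries stood between the other two groups, and all 3 comparisons were called (3.39 ± 0.22, adjusted p = 3.28e-07 for LiFKO against Control, -2.26 ± 0.22, adjusted p = 2.05e-05 for DKO against LiFKO and 1.13 ± 0.22, adjusted p = 0.0322 for DKO against Control). The last was lost without DKO replicate 2 or 3 or Control replicate 1 or 3 (adjusted p = 0.0672 to 0.135). Gdf15 had 11.27, 11.05 and 10.16 in LiFKO against 8.17, 8.10 and 8.11 in Control livers on chow, far apart (2.70 ± 0.35, adjusted p = 6.72e-05). On AMLN diet the Gdf15 gap was 1.05 ± 0.35, and its call was lost without LiFKO replicate 1, 2 or 3 or Control replicate 2 or 3 (adjusted p = 0.0584 to 0.177). Ddit4, an inhibitor of mTORC1, was also higher in LiFKO livers on chow (2.21 ± 0.51, adjusted p = 0.00514).

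On AMLN diet, Gp1ba, a platelet glycoprotein, and Spp2, a secreted phosphoprotein, were higher in LiFKO than Control livers (1.53 ± 0.36 and 1.44 ± 0.13). Cyp17a1, a steroid hydroxylase, had 11.61, 10.49 and 9.63 in DKO, 7.01, 7.01 and 7.15 in LiFKO and 10.46, 10.05 and 9.80 in Control livers. The LiFKO libraries were the lowest and the DKO range covered the Control range (-3.05 ± 0.37, adjusted p = 5.56e-05 for LiFKO against Control; 3.53 ± 0.37, adjusted p = 3.3e-05 for DKO against LiFKO). Chrna4 had 6.26, 4.21 and 4.83 in LiFKO against 7.94, 7.30 and 9.71 in Control livers (-3.21 ± 0.97, adjusted p = 0.0312), a call lost without LiFKO replicate 2 or 3 or Control replicate 1 or 3 (adjusted p = 0.0593 to 0.118). Ugt1a5 was lower in LiFKO livers on both diets (-2.14 ± 0.44 and -2.48 ± 0.44), but it overlaps the other Ugt1a genes, so its reads may be split among them. In DKO against LiFKO livers, the 5 largest falls among genes near shared sites, predicted genes left out, were those of Nupr1 (-2.59 ± 0.64), Nipal1, a magnesium transporter (-2.28 ± 0.57), Cln6, Gdf15 (-1.37 ± 0.35) and Acacb (-1.31 ± 0.17). Spp2 fell too (-1.03 ± 0.13, adjusted p = 0.000177). Of these, Nupr1 lost its call without DKO replicate 2 or 3 or LiFKO replicate 1 or 3 (adjusted p = 0.0511 to 0.0675), Nipal1 without DKO replicate 2 or 3 or LiFKO replicate 1 or 3 (adjusted p = 0.0638 to 0.0894) and Gdf15 without DKO replicate 1 or 2 or LiFKO replicate 2 or 3 (adjusted p = 0.0512 to 0.0802). In DKO against Control livers, Dpyd, of pyrimidine breakdown, was higher (0.64 ± 0.12) and Ube2l6, a conjugating enzyme of interferon responses, lower (-0.91 ± 0.18). Dpyd lost its call without DKO replicate 2 or 3 or Control replicate 1 or 2 (adjusted p = 0.0548 to 0.165), and Ube2l6 without DKO replicate 2 or 3 or Control replicate 1 or 3 (adjusted p = 0.0568 to 0.157).

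With AMLN diet in Control livers, large rises among genes near shared sites were those of Chrna4 (4.48 ± 0.97), Scd1 (4.16 ± 0.30), Scd2 (3.80 ± 0.24) and Elovl5 (2.92 ± 0.26). Chrna4 had 2.55, 4.51 and 4.44 in chow Control livers, and 2.55 is the lowest value of that library, so the size of its rise rests in part on a floor value. The largest falls were those of Lpin1 (-1.97 ± 0.51), Cyp2c44 (now Cyp2c23, -1.69 ± 0.34), Gp1ba (-1.50 ± 0.36), Scnn1a, a sodium channel subunit (-1.34 ± 0.29), and Cyp51 (-1.15 ± 0.36). Cyp51 lost its call without AMLN Control replicate 1 or 2 or chow Control replicate 1 or 3 (adjusted p = 0.0641 to 0.132) and Lpin1 without AMLN Control replicate 1 (adjusted p = 0.0677). In LiFKO livers the diet raised Scd1 (2.19 ± 0.30), Scd2 (2.07 ± 0.24), Rnf186, a ubiquitin ligase (1.49 ± 0.24), E2f2, a cell cycle factor (1.38 ± 0.29), and Srebf1 (1.15 ± 0.18). It lowered Cyp2c44 (-1.48 ± 0.34), Lipg, endothelial lipase (-1.13 ± 0.28), Cep97 (-0.87 ± 0.15), Smg1 (-0.51 ± 0.09) and Capn10 (-0.50 ± 0.12). Here E2f2 lost its call without AMLN LiFKO replicate 1 or 3 or chow LiFKO replicate 1 or 2 (adjusted p = 0.0577 to 0.0756), Cyp2c44 without AMLN LiFKO replicate 1, 2 or 3 or chow LiFKO replicate 1 or 3 (adjusted p = 0.0582 to 0.103), Lipg without AMLN LiFKO replicate 1, 2 or 3 or chow LiFKO replicate 2 or 3 (adjusted p = 0.0626 to 0.151) and Capn10 without AMLN LiFKO replicate 1 or 2 or chow LiFKO replicate 1 or 3 (adjusted p = 0.0533 to 0.127).

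Several genes at the top sites had no called change. Pank3 had 12.49, 12.68 and 12.62 in DKO, 12.46, 12.45 and 12.06 in LiFKO and 12.67, 12.35 and 12.19 in Control livers on AMLN diet and was not called (adjusted p = 0.692 for LiFKO against Control). Traf7, Clcn6, Sel1l, Men1 and Dpt had adjusted p of 0.229, 0.826, 0.182, 0.637 and 0.955 in the same comparison, and 0.625, 0.962, 0.299, 0.879 and 0.984 on chow. Rdh11 was lower in LiFKO livers on AMLN diet (-1.06 ± 0.34), a call lost without LiFKO replicate 2 or 3 or Control replicate 1 or 3 (adjusted p = 0.0771 to 0.144), and Dnpep was lower on chow (-0.38 ± 0.09).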

How the data were processed

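Liver ChIP-seq and RNA-seq data were analysed from the deposited files. Per the submitters' processing notes, chow ChIP-seq used Trimmomatic 0.32, Bowtie2 2.2.8, SAMtools 1.7, bedtools and HOMER 4.11, FPC ChIP-seq used HOMER 4.4, bedtools, SAMtools 0.1.19, Bowtie2 2.2.6 and Trimmomatic 0.36, and RNA-seq used bcl2fastq 2.17, Trimmomatic 0.32, STAR 2.6.0c, SAMtools, featureCounts and limma. Peaks were called on pooled directories, per the file headers, and the peak score is the deposited HOMER value, compared within a list only. The deposited differential table holds log2 fold changes and adjusted p-values that the authors obtained from HOMER's use of DESeq2, as the header records. The authors deposited RNA values as quantile-normalized log2 expression without counts, so depth is unknown.

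Peaks were shared from 1 bp of overlap. A site was assigned to the nearest gene start on mm9, using the RefSeq strand where known (186 of the 253 sites within 10 kb) and both gene ends otherwise. RNA values were fitted with limma 3.58.1 in R 4.3.3 (group means over 15 libraries, eBayes with trend, two-sided), adjusted by Benjamini-Hochberg over 13815 genes, after the code was tested on simulated data. Python 3.11.15, pandas 2.3.3, numpy 2.4.6 and scipy 1.17.1 did the rest. Nothing states that libraries came from separate animals, so p-values measure the spread between these samples. Same-numbered chow LiFKO and Control libraries deviated together (residual r = 0.113, 0.17 and 0.237), which by the pairing rule used here counts as paired. The AMLN pairs did not all do so (0.16, -0.039 and 0.231). No label states a pairing, and some libraries of different number and diet reached similar values (0.21 for chow LiFKO replicate 3 with AMLN Control replicate 1). Calls are from the fit without pairing unless a block is named.

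Genes were named if nearest to 1 of the 15 highest Control+1c scores, in a lipid or SREBP list with a site within 10 kb, among the 5 largest called changes per direction and comparison, or if they were Flcn or Tfe3. Predicted gene names were left out, and a few genes that the rule names are not reported here. Members and lists were chosen with earlier results of these data known. Alternatives covered overlap, window, gene assignment, moderation, filtering, samples fitted, single libraries left out and a replicate block.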

Additional observations from a re-analysis of the deposited data

Results flagged for a closer look

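At 9 of the 243 genes near a shared site (3.7%), the LiFKO effect (LiFKO minus Control) differed between diets by the limma interaction test (AMLN minus chow), and all 9 differences were negative, against 0.76% of all genes with a negative and 0.282% with a positive one. Near LiFKO+1c-only sites 5 of 215 genes (2.33%) had a negative difference and 0 a positive one. Near Control+1c-only sites 9 of 372 (2.42%) had a negative difference and 1 a positive one. Negative differences were thus not particular to shared sites. The 8 genes near shared sites described here include Cxadr and Lpcat3, which were named after their values were seen.

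Elovl5 had effects of opposite sign, -1.68 ± 0.26 on AMLN diet and 0.96 ± 0.26 on chow, and a difference of -2.64 ± 0.37 (adjusted p = 0.00763). Acacb was higher in LiFKO livers on both diets and less so on AMLN diet, by -2.58 ± 0.25 (adjusted p = 0.000196).

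Cxadr, a tight junction protein that serves as a virus receptor, had effects of -0.37 ± 0.11 on AMLN diet and 0.54 ± 0.11 on chow, a difference of -0.91 ± 0.16 (adjusted p = 0.0203). Lpcat3, a lysophospholipid acyltransferase, had effects of 0.34 ± 0.10 on AMLN diet and 1.12 ± 0.10 on chow, a difference of -0.78 ± 0.14 (adjusted p = 0.0231).

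Elovl5 and Acacb kept the call of a difference without any single library. Cxadr and Lpcat3 were not followed in those fits. There the share of near genes with a negative difference fell to as low as 1.23%, so their calls are not known to hold. The other 4 genes each lost the call without single libraries. Cyp17a1 differed by -2.41 ± 0.52 (adjusted p = 0.0441), and the adjusted p was 0.0533 to 0.113 without any 1 of 10 libraries, all but AMLN Control replicate 3 and chow LiFKO replicate 1. Scd1 differed by -1.97 ± 0.42 (adjusted p = 0.0408), on the scale where its AMLN Control values are tied at a top rank, with 0.0708 to 0.105 without any 1 of 9 libraries, all but AMLN Control replicate 3, chow LiFKO replicate 1 and chow Control replicate 3. Scd2 differed by -1.73 ± 0.34 (adjusted p = 0.0303), with 0.0595 to 0.0811 without AMLN LiFKO replicate 2, AMLN Control replicate 2, chow LiFKO replicate 2 or 3, or chow Control replicate 1 or 2. Fasn differed by -1.67 ± 0.34 (adjusted p = 0.0346), with 0.0504 to 0.0964 without AMLN LiFKO replicate 1, 2 or 3, AMLN Control replicate 1 or 2, chow LiFKO replicate 2 or 3, or chow Control replicate 2 or 3.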

How the results depend on the processing

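No call of a named gene reversed its direction under the alternatives run, and the other called genes were not followed. Shares of sites and genes moved. With at least 50% of each peak covered, the share of shared sites with a TFE3 peak was 41.4% for chow LiFKO and 29.1% for chow Control, 59.1% for FPC LiFKO and 78.3% for FPC LiFKO+1c. With centres within 100 bp it was 44.6%, 30.6% and 81.3% for chow LiFKO, chow Control and FPC LiFKO+1c. With TFE3 peaks at or above their list's median score it was 40.9% and 24.6% for chow LiFKO and Control, 50.4% and 17.6% for FPC LiFKO and Control, and 68.6% and 20.3% for FPC LiFKO+1c and Control+1c. For genes near shared sites, a 1 kb window gave 6.12% lower with diet in Control livers, 1.02% lower with diet in LiFKO livers, 18.4% higher in DKO than LiFKO, 0.0% higher in DKO than Control and 6.12% with a negative difference between diets. A 50 kb window gave 3.74% higher with diet in LiFKO livers and 0.44% lower in DKO than Control. Every gene within 10 kb gave 1.36% higher in DKO than Control, and genes of known strand gave 2.23% with a negative difference between diets. Without the trend in eBayes, 3.29% were higher and 0.823% lower with diet in LiFKO livers, 0.0% higher and 0.0% lower in DKO than Control, and 1.65% had a negative difference. Fitting only the groups compared gave 2.47% and 0.823% for the diet in LiFKO livers and 0.0% and 0.0% for DKO against Control.

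With the replicate number as a block, 0.412% were higher and 0.412% lower in DKO than Control. In the chow comparison, counted as paired by the residuals and by no label, the block ended the calls of Mvd (adjusted p = 0.0636) and Ube2l6 (0.0595), and no other named call there. Elsewhere samples share only a number, and the block ended those of Gdf15 in AMLN LiFKO (0.05), Fads1 in DKO against LiFKO (0.0619), Dpyd and Ube2l6 in DKO against Control (0.0529 and 0.0541), Pstpip2, Nupr1 and Dpyd with diet in Control livers (0.0577, 0.0565 and 0.0522), Lipg with diet in LiFKO livers (0.0632) and Cyp17a1 for the difference between diets (0.0585). A replicate block within each diet, chosen after seeing the data, gave 4.12% lower with diet in LiFKO livers and 0.412% with a positive difference between diets.

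Leaving out 1 library at a time gave 15.2% to 17.3% higher and 14.4% to 16% lower for chow LiFKO, 11.9% to 13.2% and 14.4% to 17.3% for AMLN LiFKO, 6.58% to 9.47% and 5.35% to 7.41% for DKO against LiFKO, and 0.0% to 2.06% and 0.0% to 0.823% for DKO against Control. It gave 14% to 21.4% and 4.94% to 15.2% for the diet in Control livers, 1.65% to 5.76% and 0.823% to 1.65% in LiFKO livers, and 0.0% to 0.823% and 1.23% to 5.76% for the difference between diets. Of the named calls, those lost without at least 1 single library numbered 10 of 30 for chow LiFKO, 7 of 33 for AMLN LiFKO, 9 of 22 for DKO against LiFKO, 4 of 5 for DKO against Control, 10 of 28 and 5 of 11 for the diet in Control and in LiFKO livers, and 4 of 7 for the difference between diets. Without the trend in eBayes the lost calls numbered 3, 3, 3, 4, 6, 4 and 4 in the same order, and with only the groups compared 2, 4, 0, 4, 4, 6 and 1. The 3 fatty acid genes higher with diet in LiFKO livers became 5 with the replicate block. Depth is unknown and each peak list is 1 pooled call, so shares of sites carry no replicate error.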
